A study of Mus musculus with 6 samples.

Results

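The genes described here write, remove or read DNA methylation: the methyltransferases Dnmt1, Dnmt3a and Dnmt3b, the maintenance cofactor Uhrf1, the dioxygenases Tet1, Tet2 and Tet3, the glycosylase Tdg and the methyl-CpG binding protein Mbd2. They were taken by symbol from a list of such genes, and all 9 were found among the 42303 genes of the RNA-seq table. Every one passed the minimum of 50 counts summed over both RNA libraries.

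DNA methylation in mammals sits mainly on cytosines followed by guanine (CpG). Dnmt3a and Dnmt3b place new methyl groups. After replication, Uhrf1 binds the hemimethylated daughter DNA and brings Dnmt1 to copy the pattern. TET enzymes oxidise the methyl group, and Tdg cuts out the further oxidised bases so that base excision repair can restore cytosine. Mbd2 binds methylated CpG and recruits the nucleosome remodelling and deacetylase complex (NuRD), which is linked to silencing. CpG-rich promoters of widely used genes are usually free of methylation.

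Microglia, the resident macrophages of the central nervous system, were sorted from mice without disease and, for comparison, at the peak of EAE (experimental autoimmune encephalomyelitis, an induced disease used to model multiple sclerosis). The mice carried 1 copy each of the red reporter allele Ccr2rfp and the green reporter allele Cx3cr1gfp (Ccr2rfp/+::Cx3cr1gfp/+) on C57Bl/6, in both conditions as far as the labels say. Each reporter was bred in as rfp or gfp at its own locus, so Ccr2 and Cx3cr1 were each measured in mice with a reporter allele. Disease was induced at 24 to 28 weeks of age with peptide 35-55 of myelin oligodendrocyte glycoprotein; the sources used here give no age for the naive mice. Peak was taken as the second day without a further increase in score. Cells were isolated on a 30% and 70% Percoll gradient and sorted after staining for F4/80 and CD45, and cells of 30 mice were pooled for each condition. The design text names brains and the protocol names brains and spinal cords. One pooled RNA library stands for each condition, and 2 libraries per condition hold methylated DNA captured with a methyl-CpG binding domain (MiGS).

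The RNA libraries held 31282093 naive and 36561934 peak counts. Microglial identity genes were high in both, with 42192 CPM (counts scaled to library size) naive and 27940 CPM at peak summed over 10 markers, 3 of which were at least 2-fold lower at peak. Monocyte markers summed to 47.9 CPM naive and 1104 CPM at peak, with 8 of 9 measured markers at least 2-fold higher and none of the 10 listed at 0. Most of the peak sum was 1 gene, Fn1, with 25.3 CPM naive and 1011 CPM at peak. Ccr2, 1.78-fold higher, was the measured marker short of 2-fold. T cell markers summed to 4.31 CPM and 12.7 CPM, with Cd3e, Cd3g, Cd8a and Cd8b1 at 0 in the naive library. Endothelial markers summed to 149 CPM and 65.7 CPM, with 6 of 6 at least 2-fold lower at peak, and astrocyte markers to 792 CPM and 407 CPM, with 3 of 6 lower and 1 higher. The part of these other cells in the values below was not tested. In pooled cells, fewer cells of a type and less RNA per cell cannot be told apart. Among 12 housekeeping genes, 4 were at least 2-fold higher at peak and none lower, with a median log2 ratio of 0.43.

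To show the DNA at which the capture data are read below, 4 promoter stretches from RefSeq are printed, each running from 250 bases before to 50 bases after an annotated transcript start. They were picked because Dnmt1 has starts of very different CpG content, Uhrf1 had the highest RNA ratio of the 9 genes, and Tet1 was the gene with captured DNA directly over its start. Letters run 5′ to 3′ on the strand of the gene, and capitals mark CpG.
Dnmt1 upstream start, GRCm38.p6 chr9:20959839-20960138, minus strand: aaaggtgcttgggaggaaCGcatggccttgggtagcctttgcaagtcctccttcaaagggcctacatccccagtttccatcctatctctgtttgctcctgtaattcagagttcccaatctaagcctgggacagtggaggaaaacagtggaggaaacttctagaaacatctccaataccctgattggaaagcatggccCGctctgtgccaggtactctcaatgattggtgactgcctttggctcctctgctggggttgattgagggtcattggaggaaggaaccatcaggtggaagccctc
Dnmt1 CpG-rich start, GRCm38.p6 chr9:20952574-20952873, minus strand: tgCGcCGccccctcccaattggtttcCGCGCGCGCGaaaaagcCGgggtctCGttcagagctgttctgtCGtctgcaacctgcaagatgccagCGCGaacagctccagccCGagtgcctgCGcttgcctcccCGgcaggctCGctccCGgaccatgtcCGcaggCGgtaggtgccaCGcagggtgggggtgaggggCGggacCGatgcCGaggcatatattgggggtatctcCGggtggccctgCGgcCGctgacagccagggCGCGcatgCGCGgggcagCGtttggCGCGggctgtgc
Uhrf1 CpG-rich start, GRCm38.p6 chr17:56304063-56304362, plus strand: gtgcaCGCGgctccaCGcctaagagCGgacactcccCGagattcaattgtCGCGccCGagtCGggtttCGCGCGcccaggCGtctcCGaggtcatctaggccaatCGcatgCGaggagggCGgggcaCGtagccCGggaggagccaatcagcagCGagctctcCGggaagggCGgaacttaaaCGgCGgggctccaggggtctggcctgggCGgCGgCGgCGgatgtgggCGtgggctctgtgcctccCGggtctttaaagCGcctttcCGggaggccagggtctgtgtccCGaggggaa
Tet1 start, GRCm38.p6 chr10:62887275-62887574, minus strand: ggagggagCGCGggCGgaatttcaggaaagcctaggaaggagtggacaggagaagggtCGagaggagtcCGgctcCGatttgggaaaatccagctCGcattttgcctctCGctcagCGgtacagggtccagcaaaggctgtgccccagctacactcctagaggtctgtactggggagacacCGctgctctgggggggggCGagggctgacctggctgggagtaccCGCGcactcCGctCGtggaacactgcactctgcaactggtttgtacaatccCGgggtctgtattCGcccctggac

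The stretches hold 2 CpG at the upstream Dnmt1 start, 33 at the CpG-rich Dnmt1 start 7265 bases further down the gene, 33 at the CpG-rich Uhrf1 start and 17 at the Tet1 start. RefSeq promoter stretches were matched for 13 starts of 8 of the 9 genes; Mbd2 had no entry. Their median was 26 CpG in 300 bases, beside 7 for all 31396 annotated starts on chromosomes 1 to 19. A search on both strands for 4 spellings of the E2F motif, TTTGGCGC, TTTCCCGC, TTTGCCGC and TTTCGCGC, matched 2 of the 13 starts. The CpG-rich Dnmt1 start held TTTGGCGC on its own strand, beginning 33 bases past the start, and TTTCGCGC on the opposite strand, 219 bases before it. The CpG-rich Uhrf1 start held TTTCGCGC on its own strand, 185 bases before the start. Of all starts, 2.25% held such a match, and of the 8491 starts with 20 or more CpG, 5.04% did. E2F factors are the regulators of S phase genes, and a match is only a run of letters.

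Of the 9 genes, Uhrf1 and Mbd2 were at least 2-fold higher in the peak library and none was at least 2-fold lower. Uhrf1 was 22.8-fold higher, Mbd2 2.35-fold and Dnmt1 1.83-fold, while Tet1 was 1.96-fold lower and Tet3 1.35-fold lower. Dnmt3a, Dnmt3b, Tet2 and Tdg all lay between 1.08-fold lower and 1.13-fold higher. Over the 14367 genes measured, 11.6% were past 2-fold in the higher direction and 9.35% in the lower one, and with 9 members nothing particular to the group is read from a count of 2. Ratios are of counts scaled to library sizes by the trimmed mean of M-values (TMM), with 0.5 added; their 95% intervals cover counting error only. With 1 library per condition there is no replicate check and no p-value for any RNA value.

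**Figure D1:**
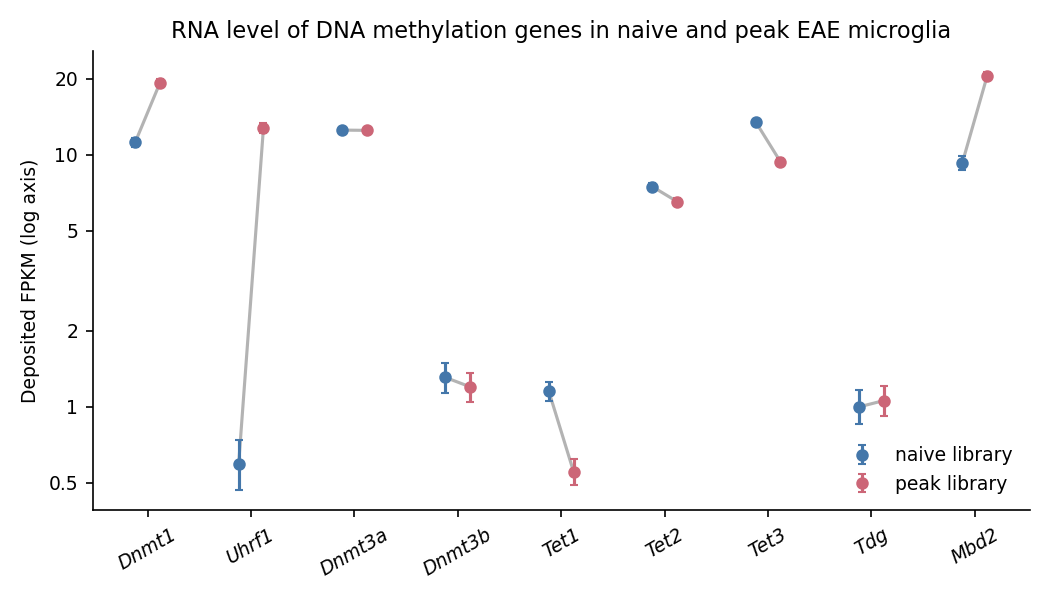
Deposited FPKM of each gene (vertical log axis) in the naive and the peak RNA library; bars are exact 95% Poisson intervals for counting error only, and grey lines join the libraries. Uhrf1 goes from 0.593 to 12.8 FPKM and Mbd2 from 9.30 to 20.5, while Dnmt3a stays at 12.5 and Tet1 goes from 1.15 to 0.552.

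Among the maintenance genes, Uhrf1 showed the widest RNA difference of the group, while that of Dnmt1 was smaller than those of Mbd2 and Tet1. Uhrf1 (ENSMUSG00000001228), which recognises hemimethylated DNA, had 79 counts in the naive library and 1993 in the peak library, or 0.593 and 12.8 FPKM (fragments scaled to gene length and library size, as deposited). Its ratio of 22.8 has an interval from 18.3 to 29.1 and lies at percentile 98.9 of all measured genes. Dnmt1 (ENSMUSG00000004099), the methyltransferase that copies the pattern, had 2214 and 4460 counts, or 11.2 and 19.4 FPKM. Its ratio of 1.83, with an interval from 1.74 to 1.93, lies at percentile 86.3. The naive library thus held 18.9 times as much Dnmt1 as Uhrf1 per length, and the peak library 1.51 times.

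The other genes of maintenance methylation differed among themselves. Among 7 listed maintenance partners, 3 were at least 2-fold higher, none lower, and the median log2 ratio was 0.75. Cdca7l, a relative of the Hells partner Cdca7, went from 13 to 363 counts (log2 ratio 4.61). Hells, a remodeller needed for methylation of packed chromatin, went from 77 to 989 counts (3.54), and the replication ligase Lig1 from 359 to 1435 (1.86). Pcna, the sliding clamp, had a log2 ratio of 0.75, and the Uhrf1 deubiquitinase Usp7 had 0.21. Cdca7 had -0.13, and the Uhrf1 paralog Uhrf2 had -0.09, with 3456 counts in the naive library and 3560 in the peak library.

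Uhrf1 lay in the upper part of the range of S phase genes, Mbd2 and Dnmt1 near its lower end and the other 6 below it. Of 24 measured S phase genes, 22 were at least 2-fold higher at peak and none lower, with a median log2 ratio of 2.86 and a range from 0.75 to 5.23. Rrm2, a subunit of the reductase that makes deoxynucleotides, had the highest, at 29 and 1220 counts. Chaf1a, a histone chaperone subunit, had 22 and 781, and Cdc6, a replication licensing factor, 10 and 359. Against the Uhrf1 log2 ratio of 4.51, 6 of the 24 were higher; against the Mbd2 value of 1.23, 20 were; and against the Dnmt1 value of 0.87, 23 were. Pcna was the S phase gene below Dnmt1. The S phase genes were higher in the same peak library, and their part in the Uhrf1 value was not tested.

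By the pair of log2 FPKM values, the 4 of 10306 genes nearest to Uhrf1 were Adora1, an adenosine receptor, at 0.641 and 12.8, the mitotic kinesin Kif11 at 0.551 and 11.6, Rspo1, a secreted Wnt enhancer, at 0.528 and 13.6, and the cyclin Ccna2 at 0.571 and 14.6 FPKM. Their distances from Uhrf1 ran from 0.11 to 0.19 on the log2 scale. Likeness over 2 libraries is a match of 2 values only.

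**Figure D2:**
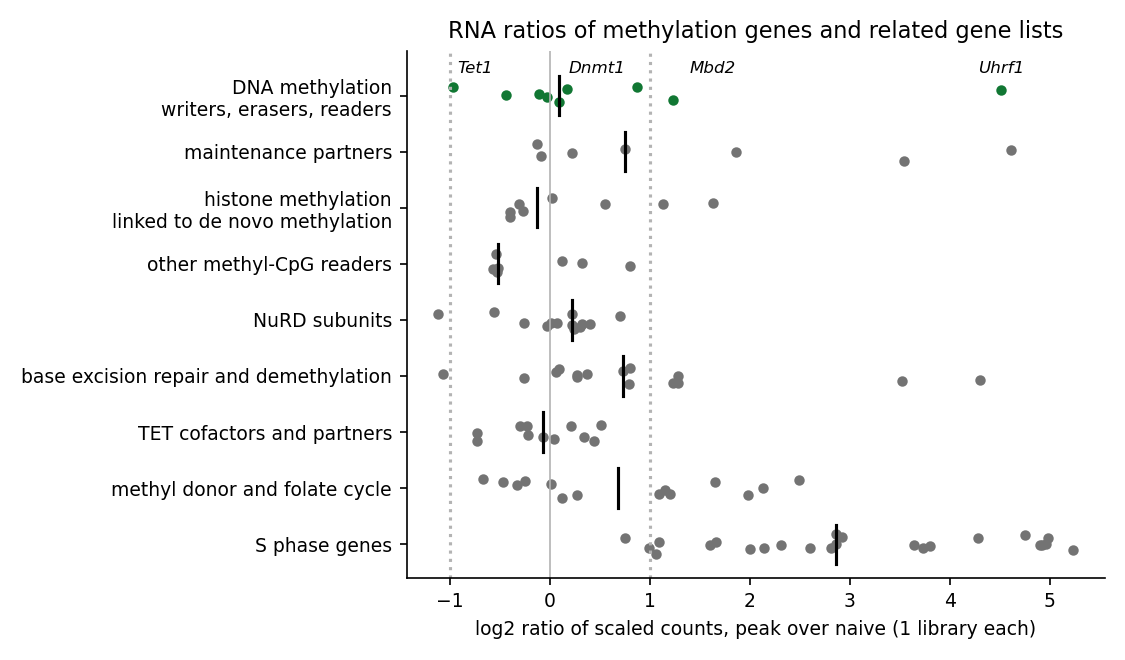
Log2 ratio of TMM-scaled counts, peak over naive (horizontal axis), for each measured gene of the methylation group (green) and of 8 related lists (grey); short black bars are medians and dotted lines mark 2-fold. Uhrf1 at 4.51 stands among the S phase genes, whose median is 2.86. The list labelled other methyl-CpG readers, not all of which bind methylated CpG, has a median of -0.52.

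The de novo methyltransferases had nearly equal levels in both libraries. Dnmt3a (ENSMUSG00000020661) had 6525 and 7608 counts and 12.5 FPKM in each library, a ratio of 1.06 with an interval from 1.03 to 1.097. The sign of that small difference turned with the scaling, from a log2 ratio of 0.09 with TMM to -0.00 with library totals and -0.05 with the upper quartile. Dnmt3b (ENSMUSG00000027478) had 209 and 224 counts, 1.31 and 1.20 FPKM, and its interval from 0.804 to 1.18 includes 1. Per length, Dnmt3a was 9.58 times as abundant as Dnmt3b in the naive library and 10.4 times at peak. The summed FPKM of the 3 methyltransferases was 25.1 in the naive library and 33.1 at peak. Dnmt1 held 44.8% of that sum naive and 58.5% at peak, and Dnmt3a 50% and 37.8%.

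Near copies and overlapping genes were low. The antisense gene Dnmt3aos had 1 and 8 counts. Dnmt3c, a rodent copy of Dnmt3b active in the male germ line, had 0 and 2, and the cofactor Dnmt3l had 0 in both, which allows up to 3 counts per library. Of 8 measured genes for histone methylation linked to de novo methylation, 2 were at least 2-fold higher and none lower, with a median log2 ratio of -0.13. They were Suv39h2, a heterochromatin methyltransferase, at 47 and 161 counts, and Nsd2, which methylates histones in gene bodies and between genes, at 2350 and 5644. With the upper quartile the count was 1, without Nsd2. Ehmt2, a euchromatic histone methyltransferase, followed at 3773 and 6050 counts, a log2 ratio of 0.55.

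The TET genes had lower or near-equal levels at peak. Tet1 (ENSMUSG00000047146) had 531 and 297 counts, 1.15 and 0.552 FPKM, and was 1.96-fold lower with an interval from 1.70 to 2.27. It lay at percentile 9.77 of all genes, just inside the 2-fold line. With library totals, the upper quartile or the deposited FPKM it was past that line, and the count of members at least 2-fold lower was then 1. Tet3 (ENSMUSG00000034832) had 5080 and 4122 counts, 13.5 and 9.40 FPKM, and was 1.35-fold lower with an interval from 1.30 to 1.41. Tet2 (ENSMUSG00000040943) had 3949 and 4025 counts, 7.48 and 6.53 FPKM, a log2 ratio of -0.11.

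Summed over the family, TET RNA was 22.2 FPKM naive and 16.5 FPKM at peak. Tet3 made up 61.0% of it naive and 57.0% at peak, Tet2 33.8% and 39.6%, and Tet1 5.21% and 3.35%. Tet3 was thus the most abundant TET gene in both libraries and Tet1 the least. Of 11 measured genes for TET cofactors and partners, none was at least 2-fold different and the median log2 ratio was -0.07. The most different were Cxxc5, a CXXC protein that can bind TET proteins, at 4724 and 3122 counts, and Idh2, which makes the TET cosubstrate 2-oxoglutarate in mitochondria, at 3816 and 2532.

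Tdg (ENSMUSG00000034674), the glycosylase that follows TET oxidation, had 168 and 208 counts and 0.999 and 1.06 FPKM. Its interval for the ratio, 0.915 to 1.39, includes 1. The copies Gm9855 and Tdg-ps had 9 and 18 counts and 2 and 1 counts, and the sources used here do not say how reads shared between Tdg and a copy were counted, which leaves its value uncertain. Around it, 5 of 15 measured base excision repair and demethylation genes were at least 2-fold higher and 1 lower, with a median log2 ratio of 0.73. The DNA glycosylases Neil3 and Ung had 19 and 422 and 22 and 284 counts, log2 ratios of 4.30 and 3.52. Neil2, of the same family as Neil3, had 27 and 73. The other higher genes were Apobec1, a cytidine deaminase, at 2433 and 6283, and Gadd45b, a stress-response gene, at 268 and 714. Its relative Gadd45g was the lower gene, at 1176 and 615.

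Mbd2 (ENSMUSG00000024513), the methyl-CpG reader, had 935 and 2414 counts and 9.30 and 20.5 FPKM. Its ratio of 2.35 has an interval from 2.18 to 2.54 and lies at percentile 91.0. The 7 other measured genes of the methyl-CpG binding domain and reader zinc finger families do not all bind methylated CpG. None was at least 2-fold different in either direction, and their median log2 ratio was -0.52. Mbd4, a reader that is also a glycosylase, had 323 and 618 counts (0.80), Mbd6 had 811 and 598 (-0.58) and the zinc finger reader Zbtb38 had 2957 and 2237 (-0.54). Mbd3, the Mbd2 relative that takes its place in NuRD, had 1098 and 1510.

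NuRD subunits were close to even, with 0 of 13 at least 2-fold higher, 1 lower and a median log2 ratio of 0.22. The lower one, the neural remodeller Chd5, rested on 42 and 21 counts, and with 5 added to each count none was lower. The main NuRD remodeller Chd4 had 8846 and 15732 counts (0.69), and Gatad2b had 2805 and 2084 (-0.57). The 4 of 10306 genes nearest to Mbd2 by log2 FPKM were Rassf3, Gcnt2, Tpd52 and Psat1, with 9.12 to 10.1 FPKM naive and 20.3 to 22.3 at peak.

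Supply of the methyl group was measured through 14 methyl donor and folate cycle genes, of which 7 were at least 2-fold higher, none lower, with a median log2 ratio of 0.68. Among the highest were the mitochondrial folate enzyme Mthfd2 at 303 and 1875 counts and Shmt1, which moves carbon from serine to folate, at 95 and 414. Mat2a, which makes S-adenosylmethionine, the methyl donor itself, had 6278 and 5499. Tyms stands in this list and among the S phase genes.

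By FPKM, the order in the naive library was Tet3, Dnmt3a, Dnmt1, Mbd2, Tet2, Dnmt3b, Tet1, Tdg and Uhrf1. Neighbours whose counting intervals overlapped were Dnmt3b with Tet1 and Tet1 with Tdg. At peak the order was Mbd2, Dnmt1, Uhrf1, Dnmt3a, Tet3, Tet2, Dnmt3b, Tdg and Tet1. Mbd2 overlapped with Dnmt1, Uhrf1 with Dnmt3a, and Dnmt3b with Tdg. Uhrf1 went from place 9 to place 3, Mbd2 from 4 to 1, and Tet3 from 1 to 5.

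The capture libraries show where methylated DNA was recovered at these same genes. They held 30424742 to 43970332 reads summed over 50 bp windows, of which 43.2% to 56.0% lay in 359 windows with over 2000 reads in some library. A window is listed only where at least 1 of the 4 libraries has 3 or more reads, so no listed window means fewer than 3 reads per window in every library, not zero. Of 2915907 listed windows, 22% reached 3 reads in peak replicate 1 alone and 18.7% in naive replicate 2 alone, against 1.35% in naive replicate 1 and 1.46% in peak replicate 2. At the 17 starts of 13 germline genes, which are methylated in most body cells, the median signal per kb was 263 and 827 in naive replicates 1 and 2 and 130 and 343 in peak replicates 1 and 2. Libraries of 1 condition therefore differed by more than 2-fold at strongly captured DNA, and the differences of gene bodies and tested starts, with the counts of calls, were also computed without each library.

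Few windows were listed around the CpG-rich starts of the methylation genes. In the 1500 bases from 1000 before to 500 after each start, 7 of 13 starts had no listed window: those of Uhrf1 and Tdg, the 2 downstream starts of Dnmt1 and the 2 upstream starts of Dnmt3a. In the 300 bases of the promoter stretches themselves, 12 of 13 had none. Among the 8 starts with 20 or more CpG, 5 had no listed window in 1500 bases, beside 70.2% of all 8491 such starts, so the group is close to other CpG-rich starts. Of starts with 0 to 4 CpG 63.5% had none, and of those with 5 to 9 CpG 37.2%. A lack of listed windows is therefore not particular to CpG-rich starts. S phase genes had none at 18 of 20 starts and housekeeping genes at 6 of 8, while all 17 germline starts had at least 20 reads.

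**Figure D3:**
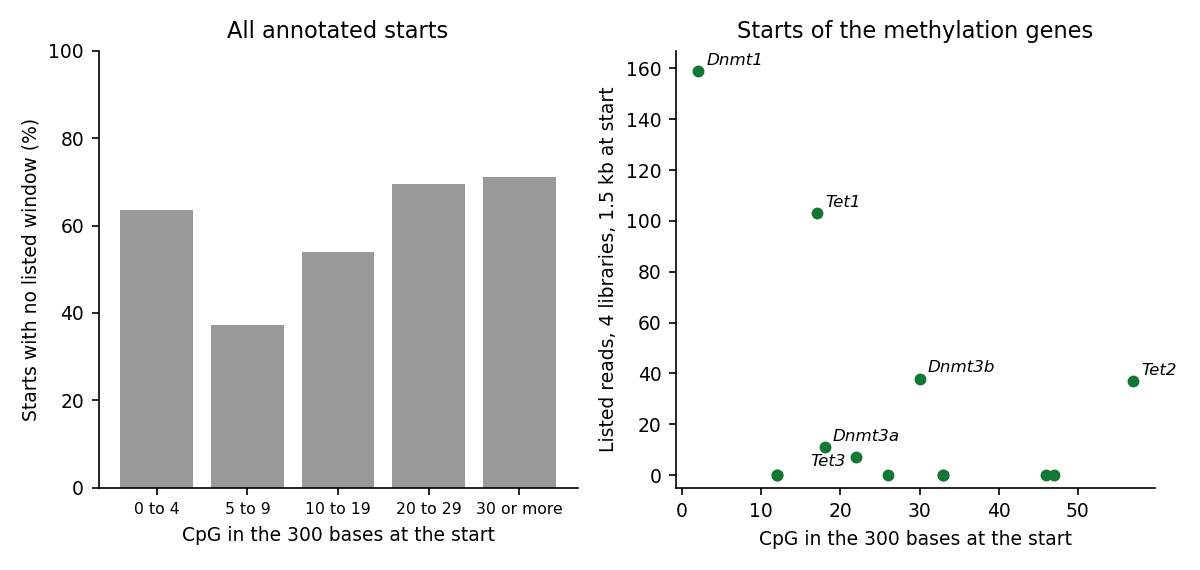
Left, percentage of all annotated starts with no listed MiGS window in 1500 bases, by number of CpG in the 300 bases at the start; right, reads summed over the 4 libraries in the same 1500 bases for each of the 13 starts of the methylation genes (points), with names where reads were listed. Of starts with 30 or more CpG, 71.2% have no listed window, and of starts with 0 to 4 CpG, 63.5%. The upstream Dnmt1 start and the Tet1 start have 159 and 103 reads.

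The stretch with no listed window around the CpG-rich start was 8400 bases long in Dnmt1 and 7950 in Uhrf1. It was 5100 in Tet2 and in Tdg, 4850 in Tet3, 3300 in Dnmt3a and 1650 in Dnmt3b. Over all starts with 20 or more CpG the median stretch was 5000 bases and the quartiles were 2900 and 8350. The stretches of Dnmt1 and Uhrf1 were therefore long but near the upper quartile of such starts. Over starts with 0 to 4 CpG the median stretch was longer, at 6100 bases, so a long stretch does not mark a CpG-rich start. These stretches are read over all 4 libraries together and say nothing of a difference between conditions.

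Tet1 was the exception at the start itself. The printed 300 bases at chr10:62887275-62887574 held 12 and 12 reads in the naive replicates and 5 and 0 in the peak replicates. In 1500 bases it had 34 and 38 reads naive and 26 and 5 at peak, or 25.7 and 29.4 against 14.4 and 2.72 signal units per kb. These reads lay in 13 windows, and no single window held more than 6 reads in any library. Both peak libraries were below both naive libraries. The Dnmt3b and Tet2 starts were split the other way. The share of all starts with such a split was not computed, and over gene bodies it was 28.6% in either direction. Nothing is therefore read from the split alone. For Tet1 the log2 difference was -1.98 (SE 0.91, unadjusted 95% interval -3.81 to -0.16). With a limma adjusted p of 0.884 it did not pass the test over all starts and gene ends. An unadjusted limma p under 0.05 was reached by 857 of the 19321 features tested, the Tet1 start among them. Leaving out each library in turn gave Tet1 log2 differences of -3.06 to -0.91. RNA of Tet1 was 1.96-fold lower in the peak library, from 1 library per condition, so the 2 readouts cannot be tested against each other.

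The upstream, CpG-poor Dnmt1 start had 32 and 11 reads in the naive replicates and 44 and 72 in the peak replicates, or 24.2, 8.52, 24.3 and 39.2 per kb. All of them lay in 3 windows centred at positions -987 to -887 relative to the start. Naive replicate 1 and peak replicate 1 were almost equal, and the log2 difference of 1.06 (SE 0.72, limma adjusted p = 0.884) did not pass the test. It was 0.34 without naive replicate 2 and 1.78 without naive replicate 1. At the CpG-rich Dnmt1 start, whose sequence is printed above, no window was listed.

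Dnmt3b had 0 and 0 reads in the naive replicates and 25 and 13 in the peak replicates, in 4 windows centred at positions -874 to -724 relative to its start. No single window held more than 8 reads, and the limma adjusted p was 0.884; no fold is given because both naive libraries were at 0. Tet2 had 4 and 6 reads naive and 13 and 14 at peak, a log2 difference of 0.86 (SE 1.41, limma adjusted p = 0.913). Tet3 had 0, 0, 6 and 1 reads and the downstream Dnmt3a start 0, 2, 9 and 0, both under the minimum of 20 for a test. For Mbd2, whose strand was not used, both ends of the gene together had 4 and 14 reads naive and 8 and 5 at peak (limma adjusted p = 0.940). In all, 0 of the 5 tested features of the group, 4 starts and the Mbd2 ends, passed. Over the genome 0% of the 19321 starts and pairs of gene ends tested did.

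**Figure D4:**
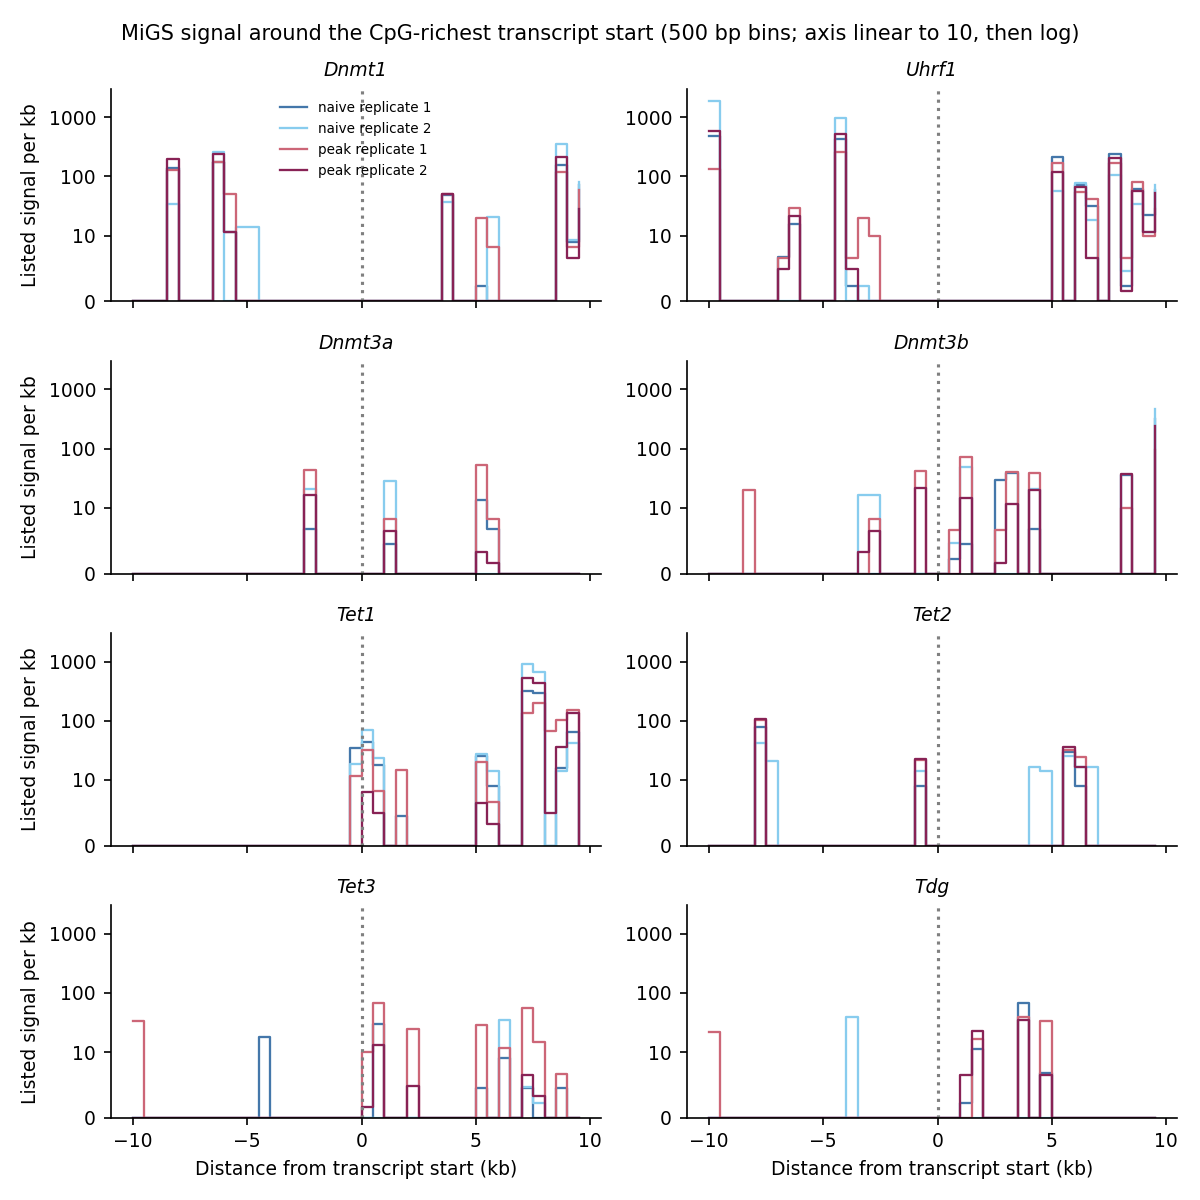
Listed MiGS signal per kb (vertical axis, linear to 10 and logarithmic above) in 500 bp bins against distance from the CpG-richest start of each gene, with 1 line per library. No signal is listed around the start in Dnmt1 and Uhrf1, where the stretch is 8400 and 7950 bases, while Tet1 has signal over its start.

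Inside the genes, captured DNA was present in all 9 and none of the 9 bodies passed the test between conditions. Bodies are gene spans less 500 bases at each end, on chromosomes of GRCm38 (mm10). Dnmt1 (chr9:20907206-20959888) had the highest signal of the group in each condition's mean, 45.2 and 42.7 per kb in the naive replicates and 43.8 and 49.2 in the peak replicates. That was percentile 86.1 to 94.0 of all 26410 gene bodies tested, depending on the library. Tet2 (chr3:133463677-133545136) had the lowest, 9.23 and 7.41 naive and 10.05 and 10.05 at peak, at percentile 45.5 to 55.9. Listed windows covered 28.3% of the Dnmt1 body and 7.77% of the Tet2 body.

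Uhrf1 (chr17:56303337-56323486), the gene with the widest RNA difference, had 34.0 and 26.9 per kb naive and 26.4 and 30.4 at peak. Its groups overlapped, and the log2 difference was -0.09 with a 95% interval from -0.88 to 0.69. Tet3 (chr6:83362373-83457208) had 24.9 and 43.4 naive and 20.5 and 27.9 at peak, the widest difference of the 9 bodies at -0.46 (interval -1.26 to 0.34). Naive replicate 2 stood far above the other 3 libraries there, and without it the difference was -0.06.

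For the remaining bodies the values overlapped or were set apart by 1 library. Dnmt3a (chr12:3801559-3914443) had 10.2 and 17.9 naive and 11.4 and 11.4 at peak, and Dnmt3b (chr2:153649411-153687730) 15.5, 20.1, 15.2 and 15.1 in the same order. Tet1 (chr10:62804570-62887469) had 14.7, 23.9, 17.0 and 16.6, and Tdg (chr10:82629814-82650799) 15.9, 23.1, 12.8 and 17.2. Mbd2 (chr18:70568225-70629134) had 18.7, 25.9, 17.2 and 21.2. Naive replicate 2 was the highest of the 4 libraries in each of these 5 genes and in Tet3. Tet2 and Dnmt3b were the bodies whose naive and peak values did not overlap, higher at peak in Tet2 (0.28, interval -0.48 to 1.05) and lower in Dnmt3b (-0.22, interval -0.99 to 0.56). Over all 26410 bodies, 28.6% did not overlap, so 2 of 9 is near the background.

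By limma with Benjamini-Hochberg adjustment, 0 of the 9 bodies passed, with adjusted p from 0.979 to 0.989. Of all 26410 bodies, 0% passed. At an unadjusted p under 0.05 there were 1115 bodies, none of them in the group, and edgeR and DESeq2 on the recovered reads called 0. The 95% intervals of the 9 differences all include 0, with their lowest end at -1.26 in Tet3 and their highest at 1.05 in Tet2.

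**Figure D5:**
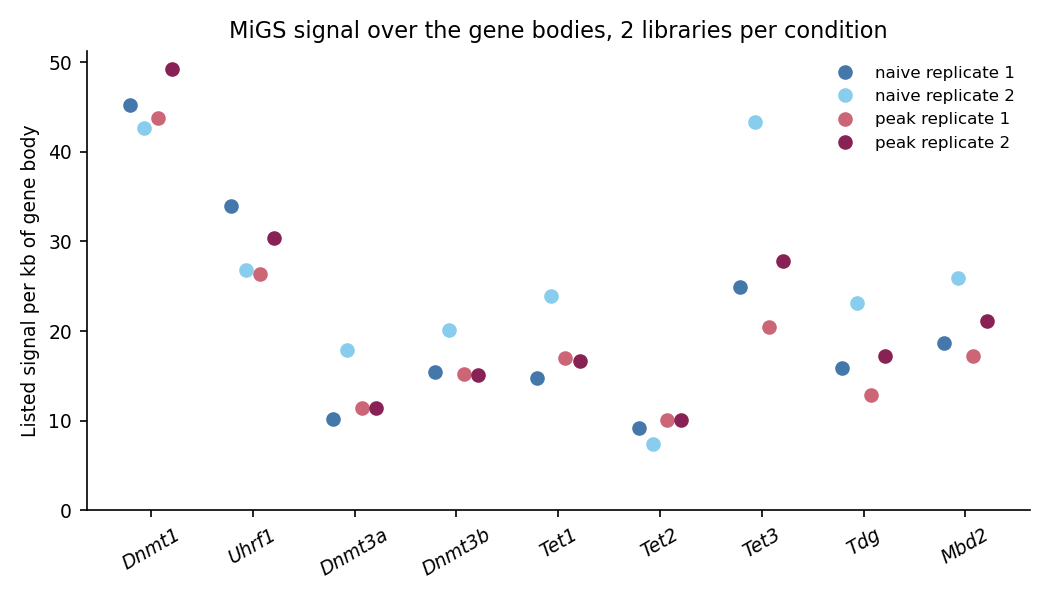
Listed MiGS signal per kb of gene body (vertical axis) for each gene, with 1 point per library and 2 libraries per condition. Dnmt1 lies between 42.7 and 49.2 and Tet2 between 7.41 and 10.05, and naive replicate 2 is the highest point in 6 of 9 genes.

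The most captured 50 bp window of each gene showed how far libraries of 1 condition differed. In Tet3 it lay 65903 bases past the RefSeq start, at chr6:83375751-83375800, with 51.1 and 247 signal units in the naive replicates and 19.04 and 77.6 in the peak replicates. In Tet1 it lay 7499 bases past the start, at chr10:62879801-62879850, with 55.6, 213, 14.9 and 109. In Dnmt3a the window at chr12:3901651-3901700 had 44.3, 166, 19.04 and 48.2, and in Uhrf1 the window at chr17:56318051-56318100 had 42.0, 81.3, 19.04 and 49.0. Naive replicate 2 was the highest and peak replicate 1 the lowest library in 9 of 9 such windows, as at the germline starts. The windows were picked by their mean over the 4 libraries, which favours a library with strong pile-ups. Their order and the sign of their differences therefore follow in part from that choice. The share over all strongly captured windows was not computed.

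The log2 differences of these 9 windows ran from -1.52 to -0.77, and limma adjusted p was 0.818 or more. Peak replicate 2 exceeded naive replicate 1 in 7 of the 9; Dnmt3b and Mbd2 were the others. Of 591 windows tested in the 9 genes, 0 passed, beside 0% of 936715 windows over the genome. Without naive replicate 1, 34199 windows passed over the genome, 26 of them in the 9 genes, and without naive replicate 2, 33 passed, none of them in the 9 genes. At an unadjusted p under 0.05 there were 29 of the 591, or 4.91%, beside 4.57% of all windows, a share near the background. Of the 591, 284 were higher and 307 lower at peak.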

How the data were processed

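RNA-seq gave, per the file headers, a raw count and an FPKM for each Ensembl gene, deposited by the authors without a normalization of the counts. The labels name a stranded total RNA kit with rRNA depletion; the sources used here do not say whether counting used strand. Bowtie2, TopHat, featureCounts, edgeR and mm10 are named, without versions or roles, in the submitters' processing notes. Gene symbols were matched by Ensembl identifier; 506 rows had none, holding 0.06% of the counts of each library. The deposited MiGS signal of each 50 bp window was a whole number of reads divided by 1 size factor per library (100% of values within 0.001). Every listed window had 3 or more reads in at least 1 library, a filter read from the values and not stated by the sources used here.

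The 9 genes and all lists were chosen with earlier results of these data known. RNA ratios used edgeR 4.0.16 TMM sizes, 0.5 added, at least 50 counts, and exact 95% Clopper-Pearson intervals; the likeness search needed 200 counts. MiGS signal was summed over gene bodies and starts (RefSeq GRCm38.p6, whose chromosomes are those of mm10). The 21291 genes with no annotated start were taken by both gene ends and counted among the starts. Sums were put on log2(value + 1) and tested two-sided with limma 3.58.1 over all features with 20 or more reads, Benjamini-Hochberg at 0.05. A fold on that scale understates the change of low values. The sources used here do not say whether 1 read was counted in several neighbouring windows, and reads over windows are not independent. Nothing in the labels says how the 2 MiGS replicates were split from the pooled mice, so their p-values measure only the spread between these libraries. Alternatives were DESeq2 1.42.0 and edgeR on the recovered reads, other scalings, filters, pseudocounts and start windows, a replicate block and leaving out each library; the scripts were tested on simulated data.

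Named genes were all 9 members, up to 3 genes of each list with the largest log2 ratio in either direction, partners a result turns on, the 4 nearest genes by FPKM, and the most captured window of each member. Pcna, Usp7, Cdca7, Uhrf2, Mbd3, Mat2a, Tyms, Apobec1, Gadd45b, Gadd45g and the monocyte marker Ccr2 were named after their values were seen. Some genes of the lists are not reported here, X-linked genes of the lists were not analysed here, and exon positions were not used here.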

Additional observations from a re-analysis of the deposited data

How the results depend on the processing

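All 63 alternative RNA ratios of the 9 genes kept their side of the 2-fold line except those of Tet1, and 13 moved by more than the counting interval. The count of members at least 2-fold lower was 1 instead of 0 with library totals, with the upper quartile and with the deposited FPKM ratio, the last chosen after seeing the data. Library totals and the upper quartile shifted the median of all genes by -0.09 and -0.14. Without a count filter 4212 genes were at least 2-fold higher and 3835 lower, and with 200 counts 696 were lower. List counts that moved by over 1.5 times were histone methylation genes higher (1 with the upper quartile), NuRD subunits lower (0 with 200 counts or 5 added), and, without a filter, TET cofactors lower (1) and germline genes higher and lower (2 each).

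In MiGS, the replicate block called 230 gene bodies, 1174 starts and 70120 windows with limma, and 1056, 599 and 49220 with edgeR, against 0 without it; member windows called were 31 and 20, and member bodies and starts 0. The labels give no meaning to the shared numbers, and deviations of same-numbered libraries correlated at 0.09, 0.19 and 0.40 over bodies, starts and windows. Windows with 50 or more reads gave 18 calls. Leaving out 1 replicate gave 0 to 34199 windows: 34199 without naive replicate 1, 26 of them in members, and 33 without naive replicate 2. Leave-one-out member windows therefore ran from 0 to 26. Small body differences turned sign when 1 library was left out: Dnmt1 from -0.0049 to 0.16, Dnmt3a from -0.64 to 0.17, Mbd2 from -0.44 to 0.033, Uhrf1 from -0.26 to 0.075 (0.0069 without peak replicate 1), Tet1 from -0.51 to 0.19, and the Mbd2 ends from -1.47 to 0.17. Uhrf1 was 0.0032 with the edgeR replicate block. Of 126 alternative body values, 119 kept their sign, and none passed the test. Fewer than 3 reads per window in every library cannot be seen, and 2 libraries limit all differences.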
